A study of Mus musculus with 16 samples.

Results

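The circadian clock genes described here are Per1, Per2, Per3, Cry1, Cry2, Clock, Nr1d1, Nr1d2, Dbp and Tef. Their members on the array are the probe sets (groups of short probes against 1 transcript) that carry 1 of these 10 symbols and no other in the platform's annotation. There were 19 such probe sets among 45037, and they cover 9 of the 10 genes. Per3 had 5 probe sets, Clock 4, and Per2, Nr1d2 and Tef 2 each, while Per1, Cry1, Cry2 and Dbp had 1 each. Nr1d1 had no probe set of its own in the table used and its expression was not analysed here. A further probe set that names Per2 together with a second gene lies outside the rule.

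Total RNA of the striatum, the input nucleus of the basal ganglia, was hybridised to Affymetrix GeneChip arrays that carry only perfect-match probes, with 1 array for each mouse. The series asks which genes respond to risperidone, an antipsychotic drug and blocker of dopamine D2 receptors, in inbred strains used to study its motor side effects. The 16 arrays form 4 groups of 4 mice, which the labels call biological replicates: DBA/2J mice (DBA/2JRccHsd) given risperidone, DBA/2J control mice, A/J mice (A/JOlaHsd) given risperidone, and A/J control mice. Risperidone was injected at 1 mg/kg once a day for 3 days, into the abdominal cavity. The labels call the control mice untreated, while the treatment text that all samples share names saline, so they are called control here. All were males aged 7 to 8 weeks, housed 8 to a cage under a 12 h cycle of light and dark. The labels give neither the hour of injection nor the hour of dissection, so time of day cannot be compared between the groups. Levels below are the deposited log2 values per probe set, where a difference of 1 is a doubling, and levels of different probe sets are not compared with each other.

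The mammalian clock is a loop of transcription and feedback. The proteins CLOCK and BMAL1 (gene Arntl) bind E-box sequences and switch on the Per and Cry genes, whose proteins return to the nucleus and inhibit CLOCK and BMAL1. A second loop runs through the nuclear receptors REV-ERB alpha and beta (genes Nr1d1 and Nr1d2), which repress Arntl, and an output arm runs through Dbp and Tef, related transcription factors that bind D-box sequences. These genes cycle over the day in many tissues, the striatum among them, and in rats the daily rhythm of PER2 in the dorsal striatum depends on dopamine D2 receptors.

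The promoters of these genes were searched for the E-box, the D-box and other motifs, and matches are shown where they were found. Whether clock proteins bind these matches was not tested. The RefSeq promoter table (GRCm38.p6) held 13 windows for 9 of the 10 genes, each with 250 bases before and 50 bases after a transcription start. It held none for Per2. The E-box CACGTG was present on either strand in 4 of the 13 windows, which belong to 3 genes (Per1, Cry1 and Tef), and in 7.15% of all 32851 promoters of the table. The D-box, searched as TTATGTAA and TTACGTAA, was present in 1 member window, that of Per3, and in 1.06% of all promoters. The RORE core, searched as TAGGTCA and TGGGTCA, is in 6.45% of all promoters and the CRE TGACGTCA in 1.79%; these letters were in 0 of the 13 windows. A match is a description of the letters in the window. The stretches around the matches follow, 5′ to 3′ on the strand of the gene, with the motif in capitals. The E-box begins 166 bases before a Per1 start at position 69098949, the first of 2 in the table, both of them inside the gene as annotated. It begins 60 bases before the start in Cry1, and in Tef 127 bases before the first and 138 bases before the second annotated start. Per3 carries TTATGTAA 205 and 158 bases before its start.
Per1 E-box, chr11:69098753-69098818, plus strand: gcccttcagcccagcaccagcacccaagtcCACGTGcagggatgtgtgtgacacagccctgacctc
Cry1 E-box, chr10:85185079-85185144, minus strand: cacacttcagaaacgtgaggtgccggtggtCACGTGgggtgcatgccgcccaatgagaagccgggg
Tef E-box, first start, chr15:81802516-81802581, plus strand: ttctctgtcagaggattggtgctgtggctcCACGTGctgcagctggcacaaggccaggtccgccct
Tef E-box, second start, chr15:81811246-81811311, plus strand: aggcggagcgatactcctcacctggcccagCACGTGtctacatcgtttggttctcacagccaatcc
Per3 D-boxes, chr4:151044786-151044900, minus strand: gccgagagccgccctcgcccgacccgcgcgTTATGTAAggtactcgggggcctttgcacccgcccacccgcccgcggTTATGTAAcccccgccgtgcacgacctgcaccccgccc

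In the same build Per1 lies at chr11:69095108-69109965, Per2 at chr1:91415977-91459351, Per3 at chr4:150997018-151044707, Cry1 at chr10:85131700-85185054 and Cry2 at chr2:92403646-92434085. Clock lies at chr5:76209868-76305603, Nr1d1 at chr11:98767932-98775377, Nr1d2 at chr14:18204056-18239106, Dbp at chr7:45705100-45710203 and Tef at chr15:81802673-81826863. Where in a transcript each probe set reads is not given in the sources used here.

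Array medians lay between 5.66 and 5.71, and 17 of the 19 clock probe sets were at or above the median probe set level of 5.67. The striatal markers Penk, Tac1 and Ppp1r1b were above the array median on every array (lowest 6.13, 5.91 and 5.99), and Drd1 ranged over 5.85 to 6.51, while Drd2, at 3.62 to 4.90, was below the array median on every array. Markers of neighbouring tissue varied widely among arrays, Ttr of choroid plexus over 6.0 to 11.97 and Tcf7l2 of thalamus over 5.81 to 8.98. In bulk RNA, fewer cells of a type and less RNA per cell cannot be told apart. Strain markers went against the label in part of 1 group: on a scale where A/J controls are near 0% and DBA/2J controls near 100%, 3 of the 4 A/J risperidone arrays (replicates 1, 2 and 4) stood at 27.8%, 36.2% and 39%, and replicate 3 at 0.444%. The 8 DBA/2J arrays stood at 87.7% to 103%, and A/J control arrays at -2.3% to 0.993%. DBA/2J control replicate 4 stood apart in another way, with a mean ribosomal protein gene level of 9.75 against 10.2 to 10.26 on the other arrays of its group, and a correlation with the other arrays of at most 0.979. Values that these arrays move are also given without them. For A/J risperidone mice that leaves 1 array, whose spread is taken from the other groups.

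Risperidone moved no clock gene past the threshold in either strain. In DBA/2J mice 0 of 19 clock probe sets had an adjusted p under 0.05 (limma with Benjamini-Hochberg adjustment over all 45037 probe sets), where 0.04% of all probe sets were called. At an unadjusted p under 0.05 there were 3 of 19 (15.8%), against 10.7% of all probe sets. In A/J mice 0 of 19 were called, against 0% of all probe sets, and 0 of 19 had an unadjusted p under 0.05, against 5.51% of all. For the mean of both strains' effects 0 of 19 were called, against 0.0266% of all, with 2 of 19 (10.5%) at an unadjusted p under 0.05 against 6.9% of all. The median log2 difference of the clock probe sets was 0.08 in DBA/2J (-0.01 over all probe sets) and 0.09 in A/J (0 over all).

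The size of an effect that these arrays leave room for is set by the intervals. The 95% interval of the risperidone effect lay within ±0.5 on the log2 scale, or 1.41-fold either way, for 18 of 19 probe sets in DBA/2J mice and for 18 of 19 in A/J mice, and the exception was Per2 1417602_PM_at in both. For the mean effect all 19 intervals lay within that bound. At Per2 1417602_PM_at that mean, -0.10, averages effects of opposite sign, -0.46 in DBA/2J and 0.27 in A/J. Without the 3 intermediate A/J risperidone arrays the A/J effects were -0.17 to 0.37, each with an adjusted p of 0.999 (limma). The A/J effect was then 0.37 ± 0.22 (SE) at Per2 1417602_PM_at, 0.35 ± 0.19 at Dbp, 0.26 ± 0.24 at Per3 1421087_PM_at, 0.25 ± 0.20 at Cry1, 0.03 ± 0.14 at Clock 1435775_PM_at and -0.17 ± 0.12 at Nr1d2 1416959_PM_at. On the same arrays the glucocorticoid-responsive gene Fkbp5 rose by 0.81 in DBA/2J mice (95% interval 0.53 to 1.10, limma adjusted p = 0.0367), and the immediate-early gene Fos fell by 0.81 there (adjusted p = 0.00284).

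**Figure D1:**
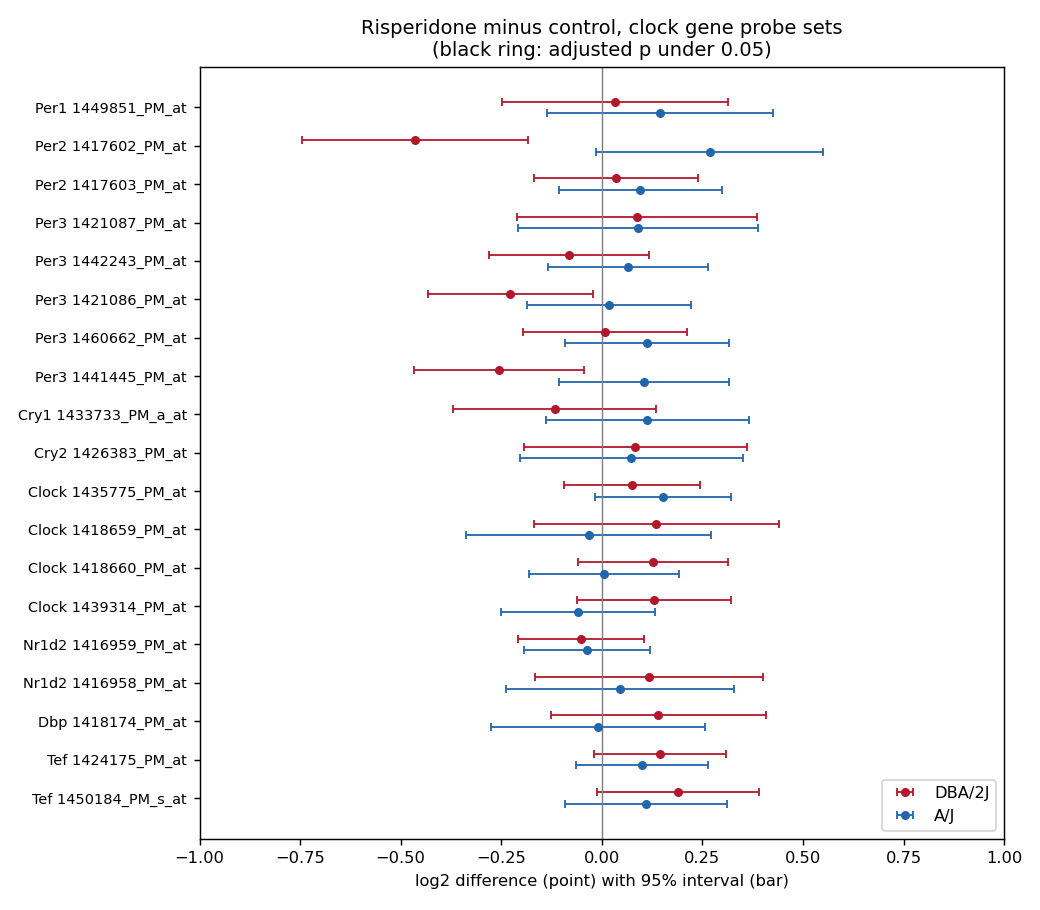
Risperidone minus control as a log2 difference (x axis) for each of the 19 clock probe sets (y axis), red for DBA/2J and blue for A/J; points are limma estimates and bars 95% intervals. Per2 1417602_PM_at has the widest gap between strains (-0.46 in DBA/2J and 0.27 in A/J), and no point is ringed because none had an adjusted p under 0.05.

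Among the inhibitors of the loop, Per1, the period gene known to respond quickly to light and neuronal signals, overlapped fully between groups. Its levels were 6.94, 7.44, 7.45 and 7.63 in DBA/2J risperidone mice, against 7.14, 7.35, 7.60 and 7.24 in DBA/2J control mice. In A/J risperidone mice they were 7.64, 7.47, 7.58 and 7.50, against 7.13, 7.38, 7.58 and 7.52 in A/J control mice. The risperidone effect was 0.03 in DBA/2J (95% interval -0.25 to 0.31) and 0.15 in A/J (-0.14 to 0.43). Neither interval leaves out 0, and DBA/2J risperidone mice spread most, with an SD of 0.30 against 0.20 in DBA/2J control mice.

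Per2, the period gene whose protein limits CLOCK and BMAL1, gave opposite signs in the strains at 1 of its probe sets. Probe set 1417602_PM_at read 6.22, 6.30, 6.07 and 6.45 in DBA/2J risperidone mice, against 6.55, 6.52, 6.85 and 6.98 in DBA/2J control mice, so that the groups did not overlap. It read 6.62, 6.43, 6.55 and 6.20 in A/J risperidone mice, against 6.18, 6.12, 5.91 and 6.52 in A/J control mice, where they did overlap. The risperidone effect was -0.46 ± 0.13 (SE) in DBA/2J, with an unadjusted p of 0.00267 and an adjusted p of 0.246 (limma), and 0.27 ± 0.13 in A/J, with an adjusted p of 0.925. The effect in DBA/2J mice less that in A/J mice was -0.73 ± 0.19, with an adjusted p of 0.349 (limma interaction term). For this difference of effects 0 of 19 clock probe sets were called, against 0% of all probe sets, and 2 of 19 had an unadjusted p under 0.05, against 9.19% of all. Ordered by mean, the groups ran DBA/2J control 6.73, A/J risperidone 6.45, DBA/2J risperidone 6.26 and A/J control 6.18, and each overlapped its neighbour in that order. Without DBA/2J control replicate 4, which had the highest value, the DBA/2J effect was -0.38 with an adjusted p of 0.404.

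The second Per2 probe set, 1417603_PM_at, did not show this order. Its levels were 5.53 to 5.79 in DBA/2J risperidone mice, against 5.44 to 5.79 in DBA/2J control mice, and 5.64 to 5.98 in A/J risperidone mice, against 5.58 to 5.81 in A/J control mice. The risperidone effects there were 0.04 (DBA/2J) and 0.10 (A/J).

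Per3, the period gene that mice need least for a rhythm, had risperidone effects of both signs over its 5 probe sets, -0.25 to 0.09 for DBA/2J mice and 0.02 to 0.11 for A/J mice. At its brightest, 1421087_PM_at, the effects were 0.09 (DBA/2J) and 0.09 (A/J), each with a 95% interval of -0.21 to 0.39. Without DBA/2J control replicate 4, which read 6.53 where the rest of its group read 7.14 to 7.40, the DBA/2J effect was -0.10. Probe set 1441445_PM_at read 4.53, 4.88, 4.85 and 4.62 in DBA/2J risperidone mice, against 4.91, 5.01, 4.90 and 5.08 in DBA/2J control mice. These groups did not overlap, but the effect of -0.25 ± 0.10 (SE) had an adjusted p of 0.390 (limma), and in A/J mice it was 0.11. The third Per3 probe set with a DBA/2J effect below 0 was 1442243_PM_at (-0.08), and 1421086_PM_at stood at -0.23 (adjusted p = 0.428, limma). Across all 19 clock probe sets, 2 had groups that did not overlap in the DBA/2J comparison (this one and Per2 1417602_PM_at), against 4.4% of all probe sets, and 0 in the A/J comparison, against 4.42%.

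The cryptochromes, the PER partners that carry most of the inhibition, did not pass the test. Cry1 read 6.05, 6.29, 6.07 and 6.03 in DBA/2J risperidone mice, against 6.25, 6.31, 6.44 and 5.91 in DBA/2J control mice. It read 6.22, 6.16, 6.32 and 6.03 in A/J risperidone mice, against 6.03, 5.77, 6.28 and 6.20 in A/J control mice. The Cry1 effects were -0.12 (95% interval -0.37 to 0.13) in DBA/2J and 0.11 (-0.14 to 0.36) in A/J. Cry2 read 8.06, 8.31, 8.35 and 8.22 in DBA/2J risperidone mice, against 8.28, 8.27, 8.46 and 7.60 in DBA/2J control mice. Here 1 array, DBA/2J control replicate 4, sets the low end of its group. In A/J risperidone mice Cry2 read 8.50, 8.37, 8.41 and 8.31, against 8.27, 8.32, 8.36 and 8.35 in A/J control mice. The Cry2 effects were 0.08 in DBA/2J, or -0.10 without that array, and 0.07 in A/J.

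Of the activator pair, Clock is a member and Arntl is described with the rest of the loop. Clock 1435775_PM_at read 7.73, 7.52, 7.57 and 7.70 in DBA/2J risperidone mice, against 7.57, 7.53, 7.51 and 7.61 in DBA/2J control mice. It read 7.40, 7.38, 7.20 and 7.32 in A/J risperidone mice, against 7.35, 7.13, 7.11 and 7.10 in A/J control mice. Within each strain the groups overlapped, and the risperidone effect was 0.08 in DBA/2J (95% interval -0.09 to 0.24) and 0.15 in A/J (-0.02 to 0.32). Nr1d2, the repressor of Arntl, had the narrowest range of the 19 probe sets at 1416959_PM_at, which spanned 0.29 over all 16 arrays, against 1.07 for Per2 1417602_PM_at. Its risperidone effects were -0.05 (95% interval -0.21 to 0.10) in DBA/2J and -0.04 (-0.19 to 0.12) in A/J. Its second probe set, 1416958_PM_at, spanned 0.81, with 7.54 on DBA/2J control replicate 4 and 8.01 to 8.35 elsewhere. The DBA/2J effect there was 0.12, or -0.07 without that array.

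The output factors Dbp and Tef did not pass the test under risperidone either. Dbp read 7.58, 7.61, 7.65 and 7.74 in DBA/2J risperidone mice, against 7.76, 7.66, 7.46 and 7.14 in DBA/2J control mice. It read 7.74, 7.67, 8.15 and 7.62 in A/J risperidone mice, against 7.89, 7.67, 7.74 and 7.92 in A/J control mice. The Dbp effect was 0.14 in DBA/2J, or 0.02 without DBA/2J control replicate 4, and -0.01 in A/J. The A/J value rests on the 3 intermediate A/J risperidone arrays, since the one array left without them is the highest at 8.15 and gives 0.35. Tef gave the 2 probe sets with an unadjusted p under 0.05 for the mean effect over both strains: 0.12 ± 0.06 (SE) at 1424175_PM_at and 0.15 ± 0.07 at 1450184_PM_s_at. Their adjusted p were 0.707 and 0.705 (limma), and both were positive in each strain. Tef 1424175_PM_at read 8.66, 8.84, 8.80 and 8.56 in DBA/2J risperidone mice, against 8.56, 8.65, 8.61 and 8.46 in DBA/2J control mice. In A/J risperidone mice it read 8.88, 8.76, 8.84 and 8.79, against 8.63, 8.74, 8.77 and 8.73 in A/J control mice, and the groups overlapped in both strains.

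**Figure D2:**
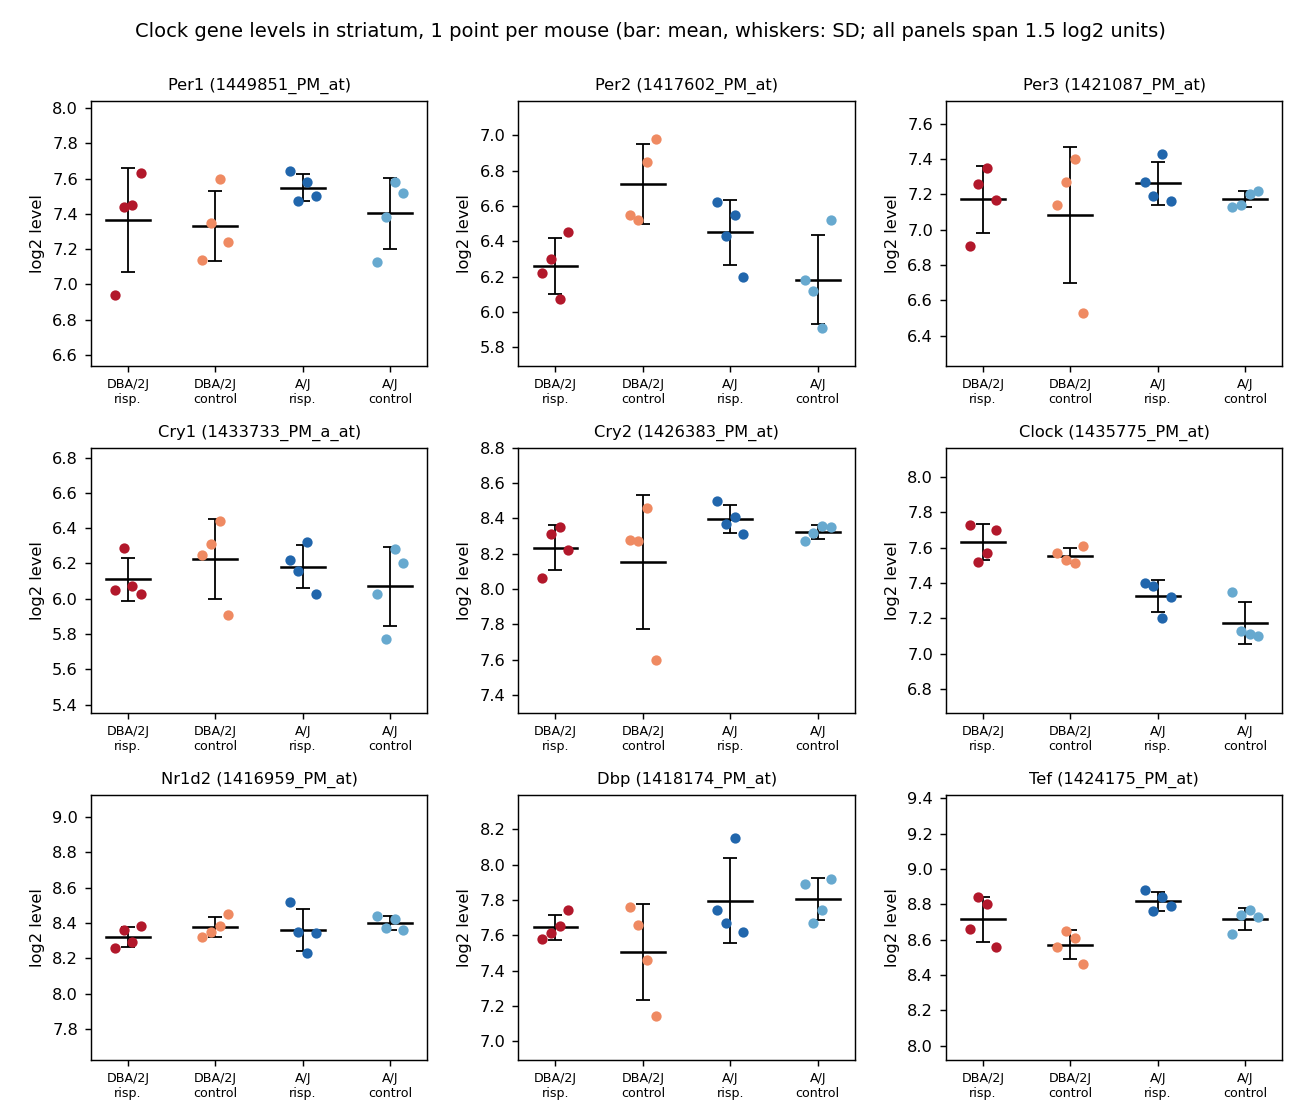
Log2 level (y axis) of the brightest probe set of each of the 9 measured clock genes in the 4 groups (x axis, risp. for risperidone), 1 point per mouse, with the group mean as a bar and whiskers of 1 SD; every panel spans the same number of log2 units. Clock is higher in both DBA/2J groups than in both A/J groups, the highest Per2 values are in DBA/2J control mice, and 1 DBA/2J control mouse lies well below the others in Per3, Cry2 and Dbp.

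Between strains, single probe sets of Clock, Per2 and Per3 passed the test, and their other probe sets did not. In control mice 2 of 19 clock probe sets were higher in DBA/2J than in A/J at an adjusted p under 0.05, where 2.01% of all probe sets were called higher, and 0 were lower, where 1.86% were; in either direction 3.87% of all were called. At an unadjusted p under 0.05 there were 5 of 19 (26.3%), against 17.7% of all. In risperidone mice 0 of 19 were higher, against 0.349% of all, and 1 was lower, against 0.433%; in either direction 0.782% of all were called, and 2 of 19 (10.5%) had an unadjusted p under 0.05, against 9.43%. Groups did not overlap for 3 of 19 in control mice, against 9.33% of all, and for 2 of 19 in risperidone mice, against 7.68%.

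Clock 1435775_PM_at averaged 7.56 ± 0.04 in DBA/2J control mice and 7.17 ± 0.12 in A/J control mice (SD, n = 4 each). The difference of 0.38 ± 0.08 (SE) had a 95% interval of 0.21 to 0.55 and an adjusted p of 0.00948 (limma), and the groups did not overlap. In risperidone mice, where the means were 7.63 ± 0.10 for DBA/2J and 7.33 ± 0.09 for A/J (SD, n = 4 each), the groups again did not overlap. The difference of 0.30 had an adjusted p of 0.107 there. Every one of the 8 DBA/2J mice was above every one of the 8 A/J mice at this probe set. The other 3 Clock probe sets did not pass the test: in control mice they differed by -0.01 (1418659_PM_at), -0.03 (1418660_PM_at) and -0.21 (1439314_PM_at, adjusted p = 0.242, groups not overlapping). The first of these rests on DBA/2J control replicate 4, which read 6.48 at 1418659_PM_at where the rest of its group read 7.21 to 7.40. Without that array the differences were 0.20 (1418659_PM_at, adjusted p = 0.212), -0.08 (1418660_PM_at), -0.14 (1439314_PM_at) and 0.36 (1435775_PM_at, adjusted p = 0.0182). Without the 3 intermediate A/J risperidone arrays, the difference at 1435775_PM_at in risperidone mice was 0.43 ± 0.14 (SE, adjusted p = 0.355, limma).

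Per2 1417602_PM_at was also higher in DBA/2J control mice, by 0.54 ± 0.13 (SE) with a 95% interval of 0.26 to 0.82 and an adjusted p of 0.0272 (limma). The lowest DBA/2J control mouse and the highest A/J control mouse met at 6.52. In risperidone mice the strain difference was -0.19, with an adjusted p of 0.727. The DBA/2J control arrays enter both this comparison and the DBA/2J drug comparison, so the values 0.54 and -0.46 share 4 arrays. The call was lost when any 1 of 5 arrays was left out: A/J control replicate 1 (adjusted p = 0.0614), 2 (0.0676) or 3 (0.103), or DBA/2J control replicate 3 (0.067) or 4 (0.0791, with a difference of 0.46). At the second Per2 probe set the strain difference in control mice was -0.03.

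Per3 1441445_PM_at was the probe set lower in DBA/2J risperidone mice, at 4.72 ± 0.17 against 5.28 ± 0.17 in A/J risperidone mice (SD, n = 4 each). Its 4 values in A/J risperidone mice were 5.47, 5.27, 5.31 and 5.07, all above the highest DBA/2J risperidone value of 4.88. The difference was -0.56 ± 0.10 (SE), with a 95% interval of -0.77 to -0.35 and an adjusted p of 0.00784 (limma). In control mice the difference was -0.20, with an adjusted p of 0.313. Without the 3 arrays of that A/J group whose strain markers were intermediate, the difference was -0.59 ± 0.16 with an adjusted p of 0.176, with only 1 A/J risperidone array left and its spread taken from the other groups. This probe set lies below the median probe set level. In risperidone mice the other 4 Per3 probe sets differed between strains by -0.18 (1421086_PM_at), -0.09 (1421087_PM_at), 0.03 (1442243_PM_at) and 0.005 (1460662_PM_at), and none was called. In control mice they differed by -0.09 to 0.18, or by 0.02 to 0.12 without DBA/2J control replicate 4.

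**Figure D3:**
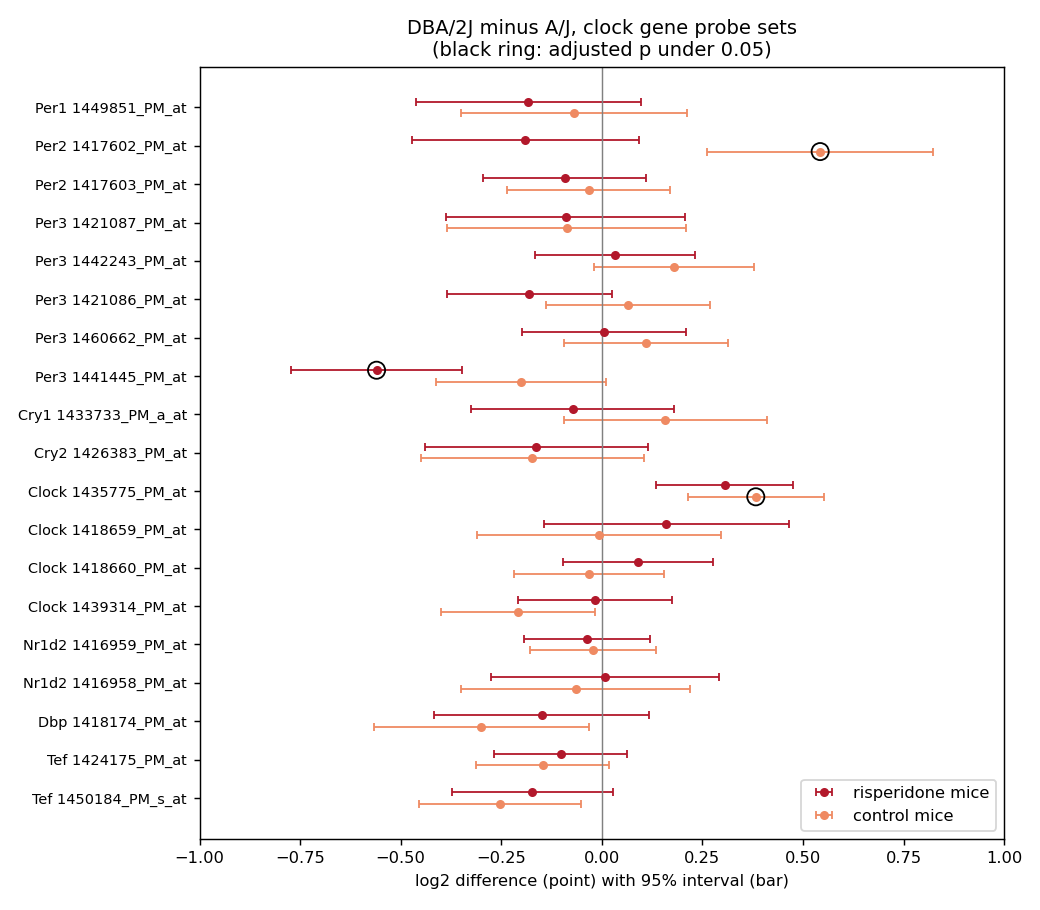
DBA/2J minus A/J as a log2 difference (x axis) for each of the 19 clock probe sets (y axis), red for risperidone mice and orange for control mice; points are limma estimates, bars 95% intervals, and black rings mark an adjusted p under 0.05. Rings stand at Per2 1417602_PM_at (0.54) and Clock 1435775_PM_at (0.38) in control mice and at Per3 1441445_PM_at (-0.56) in risperidone mice, and the other probe sets of these genes are not ringed.

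The output factors did not pass the test between strains in either treatment, and the values that follow are from control mice unless stated. Dbp differed by -0.30 ± 0.13 (SE) with an adjusted p of 0.222 (limma), and by -0.18 with an adjusted p of 0.494 without DBA/2J control replicate 4. Tef differed by -0.15 at 1424175_PM_at (adjusted p = 0.340) and by -0.25 at 1450184_PM_s_at (adjusted p = 0.168). The Tef groups did not overlap at 1450184_PM_s_at, a probe set whose suffix marks probes that may be shared with other transcripts. Without DBA/2J control replicate 4 Tef differed by -0.11 and -0.18. Cry1 differed by 0.16 (0.26 without DBA/2J control replicate 4, adjusted p = 0.245), Cry2 by -0.17 (0.01 without DBA/2J control replicate 4), Per1 by -0.07, and Nr1d2 by -0.02 and -0.07, the last 0.12 without that array. In risperidone mice Dbp differed by -0.15, Tef by -0.10 and -0.17, and Cry1 by -0.07. There Cry2 differed by -0.16, Per1 by -0.18, and Nr1d2 by -0.04 and 0.01, and none of these was called.

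The disagreement among probe sets of 1 gene was compared directly in control mice, and not in risperidone mice, where Per3 1441445_PM_at was called. For each of 19 pairs of probe sets of the same gene, the strain effect on their log2 ratio was tested with a two-sided exact permutation test of 4 against 4 mice, whose smallest possible p is 0.0286. That p was reached by 5 pairs, at an adjusted p of 0.109 over the 19 pairs: the Per2 pair, where the strain differences were 0.575 apart, Clock 1435775_PM_at against 1418660_PM_at (0.415 apart) and against 1439314_PM_at (0.59 apart), and Per3 1441445_PM_at against 1442243_PM_at (0.38 apart) and against 1421086_PM_at (0.265 apart). An adjusted p under 0.05 would have required most of the 19 pairs to reach that smallest p, so this test could hardly pass. Each of the 5 pairs holds a probe set called between strains on these arrays. Clock 1439314_PM_at and Per3 1441445_PM_at, averaging 4.71 and 5.04 over the 16 arrays, lie below the median probe set level. Mice of the same group that were high at 1 probe set of a gene were not always high at the next. With group means removed, the correlation over the 16 arrays was 0.484 for the Per2 pair, 0.586 for the Tef pair and -0.363 for the Nr1d2 pair. Clock 1435775_PM_at correlated at -0.324 to 0.099 with the other Clock probe sets. The 10 Per3 pairs ran from -0.350 to 0.821, and the highest was that of 1441445_PM_at with 1421086_PM_at, followed by 1441445_PM_at with 1460662_PM_at at 0.564. When all probe sets of a gene were averaged, no clock gene passed the threshold between strains. In control mice Per2 then differed by 0.26 (adjusted p = 0.182) and Clock by 0.03 (0.822), and in risperidone mice Per3 differed by -0.16 (0.487).

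**Figure D4:**
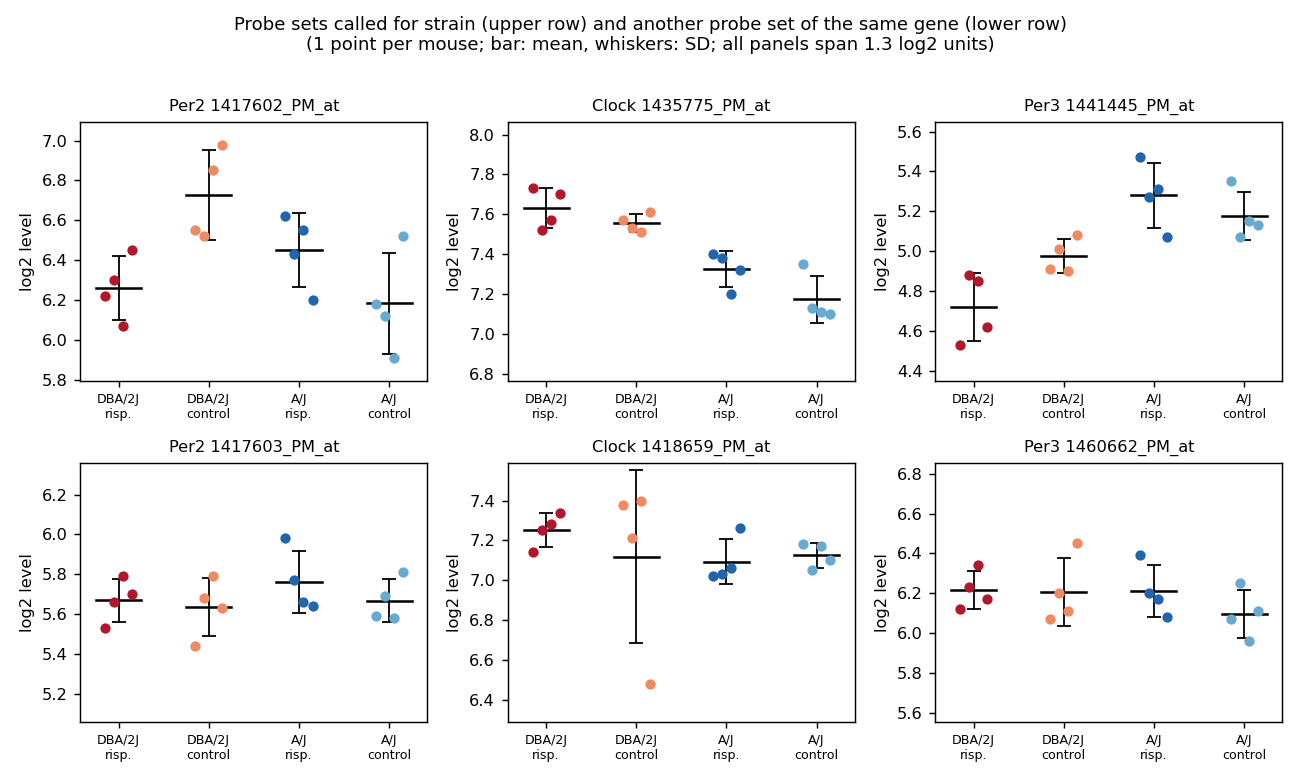
Log2 level (y axis) in the 4 groups (x axis) of the 3 probe sets with an adjusted p under 0.05 between strains (upper panels: Per2 1417602_PM_at, Clock 1435775_PM_at, Per3 1441445_PM_at) and of another probe set of the same gene (lower panels: Per2 1417603_PM_at, Clock 1418659_PM_at, Per3 1460662_PM_at); points are mice, bars means and whiskers 1 SD. In the upper panels the strain groups do not overlap at Clock in either treatment or at Per3 in risperidone mice. The Per2 control groups meet at 6.52. In the lower panels the strain groups overlap in both treatments. At Clock 1418659_PM_at the control groups overlap through DBA/2J control replicate 4 (6.48). The rest of its group read 7.21 to 7.40, against 7.05 to 7.18 in A/J control mice.

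Some markers of striatal neurons and of other cell types also passed the test between strains in control mice, where 5.31% of all genes had a called probe set. Of 11 striatal projection neuron markers 2 were called lower in DBA/2J (Pde10a and Ppp1r1b) and 4 had a positive difference, with a median of -0.16. Of 9 thalamus markers 2 were called lower in DBA/2J and 0 had a positive difference, with a median difference of -0.58 and mean levels of 5.77 to 5.93 in DBA/2J control mice against 5.83 to 7.30 in A/J control mice. Of 11 oligodendrocyte markers 4 were called lower and 0 had a positive difference, with a median of -0.48 and mean levels of 7.90 to 8.20 in DBA/2J control mice against 8.28 to 8.94 in A/J control mice. Of 8 microglia markers 2 were called lower and 1 had a positive difference, with a median of -0.30 and mean levels of 5.80 to 5.98 in DBA/2J control mice against 6.23 to 6.37 in A/J control mice. With the mean levels of striatal, choroid plexus and thalamus markers as covariates, the Clock difference was 0.45 ± 0.11 (adjusted p = 0.0808) and the Per2 difference 0.44 ± 0.20 (adjusted p = 0.43). The Per3 difference in risperidone mice was -0.56 ± 0.12 (adjusted p = 0.0758) in that fit. The part of oligodendrocyte and microglia RNA in these strain differences was not tested. In the DBA/2J drug comparison 11 of 12 choroid plexus and ependyma markers were positive, with mean levels of 4.62 to 5.71 in DBA/2J risperidone mice against 4.46 to 4.70 in DBA/2J control mice, and 0 of them were called, with 3 at an unadjusted p under 0.05 (10.2% of all genes).

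Among mice of the same group, the pairs formed by Per3, Cry1 and Cry2 passed the test, and how close each was depended in part on DBA/2J control replicate 4. Each gene was taken at its brightest probe set, group means were removed, and 36 pairs of genes were correlated over 16 arrays, with two-sided p from 100000 permutations of arrays within groups. For Per3 that is 1421087_PM_at, which correlated at only -0.350 to 0.080 with the other Per3 probe sets. The Per3 correlations below therefore describe that probe set and not the gene as a whole. Of the 36 correlations 20 were positive, with a median of 0.14, or 25 with a median of 0.282 without DBA/2J control replicate 4. An adjusted p under 0.05 was passed by 4 with Pearson's r and by 6 with Spearman's rho. The share of all gene pairs that would pass on these arrays was not computed. It is therefore not known whether these counts exceed those of other genes. The closest pair was Per3 and Cry2, with r = 0.951 (p = 0.00153, adjusted 0.0184, permutation) and rho = 0.903 (p = 0.00106, adjusted 0.0191, permutation). Without the 2 arrays farthest from the median of Per3, r was 0.842, and without DBA/2J control replicate 4 alone it was 0.844.

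Per3 and Cry1 followed with r = 0.715 (p = 0.00145, adjusted 0.0184, permutation) and rho = 0.740 (p = 0.00103, adjusted 0.0191), and r was 0.475 without the 2 farthest arrays and 0.508 without DBA/2J control replicate 4. Cry1 and Cry2 gave r = 0.691 (p = 0.00469, adjusted 0.0422, permutation) and rho = 0.687 (p = 0.00462, adjusted 0.0277), and r was 0.604 without the 2 farthest arrays and 0.467 without DBA/2J control replicate 4. Without that array Per1 was closer to Cry2 (r = 0.763) and to Per3 (r = 0.743) than these were to Cry1. Over all 16 arrays the Per1 pairs did not pass, with r = 0.464 for Cry2 (p = 0.124, adjusted 0.279, permutation; rho = 0.526, p = 0.0616, adjusted 0.152) and r = 0.537 for Per3 (p = 0.0685, adjusted 0.190, permutation; rho = 0.579, p = 0.0314, adjusted 0.103). Per3 and Clock ran in opposite directions, with r = -0.523 (p = 0.00103, adjusted 0.0184, permutation) and rho = -0.644 (p = 0.00302, adjusted 0.0266), and r was -0.624 without the 2 farthest arrays. By rho alone, Tef passed with Per3 (rho = 0.744, p = 0.00369, adjusted 0.0266; r = 0.624, p = 0.0247, adjusted 0.11, permutation) and with Cry2 (rho = 0.738, p = 0.00202, adjusted 0.0242; r = 0.611, p = 0.0142, adjusted 0.073, permutation). Within a group these arrays also differed in tissue markers and strain markers, whose part in the correlations was not tested.

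**Figure D5:**
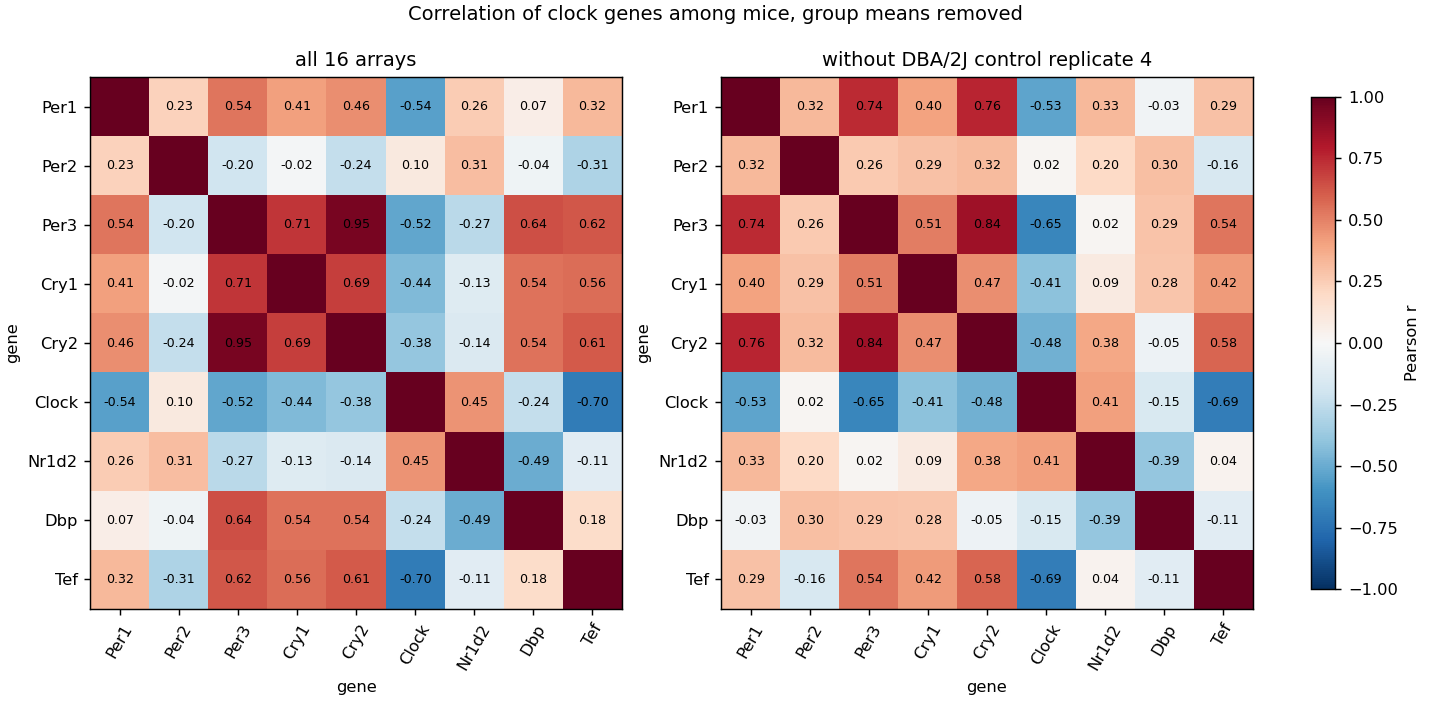
Pearson correlation (colour and printed value, from -1 to 1) between each pair of the 9 measured clock genes (both axes) after group means were removed, over all 16 arrays (left) and without DBA/2J control replicate 4 (right). Each gene is read at its brightest probe set only. Per3 and Cry2 stay the closest pair in both panels (0.951 and 0.844), and Clock stays negative with Per1, Per3, Cry1, Cry2, Dbp and Tef in both.

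For Per1 and Dbp, a light-responsive period gene and an output gene, the most similar profiles among 9938 other genes were looked up in the same way, as a description only. Per1 was closest to Itm2b (r = 0.942), Atrn (r = 0.941) and Ubfd1 (r = 0.926) over 16 arrays, and these were 0.965, 0.940 and 0.925 without DBA/2J control replicate 4. Dbp was closest to Zkscan3 (r = 0.892), Slc17a5 (r = 0.885) and LTO1 (r = 0.877), at 0.923, 0.814 and 0.804 without that array. None of these is in the lists of other clock loop genes or clock output genes.

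The rest of the loop was read from a list of 21 other clock loop genes, of which 19 were measured with 47 probe sets. In the DBA/2J drug comparison, the A/J drug comparison and their mean, 0 of 19 genes were called, against 0.0643%, 0% and 0.0526% of 17097 genes. At an unadjusted p under 0.05 there were 7, 1 and 4 of the 19 at their brightest probe set, against 10.2%, 4.87% and 6.62% of all genes. At the brightest probe set of each gene, 7 of 19 were positive in DBA/2J (median -0.07), 6 of 19 in A/J (median -0.04) and 6 of 19 in the mean (median -0.09), against 52.6%, 45.8% and 50.9% of all genes. The smallest p for the mean effect belonged to Hlf, the third factor of the Dbp and Tef family (-0.20, adjusted p = 0.565, limma), and to Arntl, the partner of Clock (-0.19, adjusted p = 0.584). Nfil3, a repressor at D-boxes, followed with -0.21 (adjusted p = 0.621).

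Between control mice of the strains, 1 other loop gene was called higher in DBA/2J and 1 lower, where 5.31% of all genes had a called probe set. Arntl 1425099_PM_a_at read 6.93, 6.72, 6.64 and 6.64 in DBA/2J control mice, against 6.48, 6.43, 6.31 and 6.31 in A/J control mice, a difference of 0.35 ± 0.09 (SE, adjusted p = 0.0418, limma). Its other probe set, 1457740_PM_at, went the other way, by -0.47 (adjusted p = 0.0899). The call at 1425099_PM_a_at was lost without any 1 of 11 of the 16 arrays, which were the 4 A/J control arrays, the 4 A/J risperidone arrays, DBA/2J control replicates 1 and 2 and DBA/2J risperidone replicate 1, with differences of 0.28 to 0.38. Bhlhe41, a repressor that competes at E-boxes, read 5.72, 6.08, 5.70 and 6.03 in DBA/2J control mice, against 7.19, 6.58, 6.61 and 6.34 in A/J control mice, and the groups did not overlap. It was lower by 0.80 on the log2 scale at 1421099_PM_at (-0.80 ± 0.16, adjusted p = 0.00745, limma) and lower at 1457096_PM_at (-0.50, adjusted p = 0.0493). The first of these calls was kept without any single array, but with the striatal, choroid plexus and thalamus marker levels as covariates its difference was -0.53 ± 0.22 (adjusted p = 0.384). In that fit Arntl 1425099_PM_a_at differed by 0.37 (adjusted p = 0.302) and Bhlhe41 1457096_PM_at by -0.58 (adjusted p = 0.265). The second was lost without any single array other than A/J control replicate 1 and DBA/2J control replicate 4, with values of -0.53 to -0.39 in the fits that lost it. In risperidone mice 0 of 19 were called, against 1.02% of all genes, with 4 of 19 at an unadjusted p under 0.05, against 8.86% of all, and Bhlhe41 differed there by -0.58 (adjusted p = 0.141).

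Of 16 clock output genes, 13 were measured with 24 probe sets, and risperidone called 0 of them in either strain, against 0.0643% of all genes in DBA/2J and 0% in A/J. At an unadjusted p under 0.05 DBA/2J mice had 2 of the 13 and A/J mice 1, against 10.2% and 4.87% of all genes. The smallest p was that of Lonrf3, at 0.34 in DBA/2J (adjusted p = 0.177, limma), 0.16 in A/J and 0.25 for the mean (adjusted p = 0.272). Between strains in control mice 1 of 13 was called, against 5.31% of all genes: Vip, which encodes a neuropeptide of the central clock that also marks cortical interneurons, was higher in DBA/2J by 0.73 ± 0.14 (SE, adjusted p = 0.00434, limma), a call kept without any single array and lost with the same marker levels as covariates (0.70, adjusted p = 0.0976). In risperidone mice 0 of 13 were called between strains, against 1.02% of all genes, with 3 at an unadjusted p under 0.05, against 8.86%, and Vip differed by 0.30 (adjusted p = 0.517).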

How the data were processed

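The authors normalized the arrays with RMA, per the submitters' processing notes (version not given), and deposited log2 levels per probe set, rounded to 2 decimals. Scanning, software and filters are not given in the sources used here. The log2 values were used as deposited. The 104 array control probe sets among 45141 were dropped, and the other 45037 were tested without a filter on level; 28898 name 1 gene, 551 several and 15588 none in the platform annotation, which can be old. Their number, 4 arrays a group, limits the precision.

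limma 3.58.1 in R 4.3.3 (lmFit and eBayes, two-sided tests) fitted a mean for each of the 4 groups to the 16 arrays together. In each of 6 comparisons the Benjamini-Hochberg adjustment took in every tested probe set, and an adjusted p under 0.05 was called. The procedure was tested on simulated data. All members are named with all their probe sets, and a gene's value is that of its brightest probe set. Of other genes, 15 lists (192 entries, 172 measured) gave counts and up to 4 named genes per comparison for the loop and output lists. Members, lists and tests were chosen with earlier results of these data known. Strain markers differed by at least 1.5 between control groups, at a level of at least 7 and an adjusted p under 0.01; the share is the median position of an array's unlogged levels between both control means, each control array being scored with markers chosen without it. Figures were drawn with matplotlib 3.10.9.

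Same-numbered arrays were not treated as pairs: only 1 or 2 of 4 same-number correlations exceeded 0.1 in each comparison, with means of 0.074, 0.049, 0.056 and 0.025. Gene positions and promoters came from RefSeq tables of GRCm38.p6. A comparison of member protein sequences that was planned was not run, because no protein table was used here. Alternatives covered normalization, filtering, probe sets per gene, the variance model, array weights, a replicate block, arrays in the fit, covariates and leaving out arrays.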

Additional observations from a re-analysis of the deposited data

Results flagged for a closer look

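Each group's 4 values were checked for an array whose gap to the nearest of the others took up more than 0.829 of the group's range. Of 76 such checks 7 passed, where the nominal rate is about 1 in 20. That rate assumes independent checks, but these share arrays, and the share of all probe sets that pass was not computed. Of the 7, 3 are DBA/2J control replicate 4. That array read 7.54 at Nr1d2 1416958_PM_at, against 8.26 to 8.29 on the others of its group. It read 4.38 at Clock 1439314_PM_at, against 4.65 to 4.68, and 6.60 at Per3 1421086_PM_at, against 6.40 to 6.41, so it was low at 2 of these probe sets and high at 1. DBA/2J risperidone replicate 2 read 6.29 at Cry1, against 6.03 to 6.07, and DBA/2J risperidone replicate 3 read 7.45 at Tef 1450184_PM_s_at, against 7.19 to 7.23. A/J risperidone replicate 4 read 7.26 at Clock 1418659_PM_at, against 7.02 to 7.06. A/J control replicate 1 read 7.35 at Clock 1435775_PM_at, against 7.10 to 7.13, which is still below the lowest DBA/2J value of 7.51.

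Per2 1417602_PM_at is listed because every DBA/2J risperidone array was below the DBA/2J control mean and every A/J risperidone array was above the A/J control mean. The difference of the effects was -0.73, and its test did not pass (limma interaction term, adjusted p = 0.349; 0.212 to 0.961 over the alternatives, with values of -0.95 to -0.61). Without DBA/2J control replicate 4 the effects were -0.38 in DBA/2J and 0.27 in A/J.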

How the results depend on the processing

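The 4 counts of clock probe sets called for risperidone (DBA/2J, A/J, their mean and their difference) were 0 under every alternative run. The fit on only the arrays compared has no value for the mean and the difference. Between strains in control mice the count of 2 was 0 with a gene's probe sets averaged, 0 with only the arrays compared, 0 with a covariate for the strain marker share, 0 with 3 regional marker scores as covariates and 1 with array weights. It was 1 to 2 with single arrays left out, and 1 without the 3 intermediate A/J risperidone arrays and DBA/2J control replicate 4, a setting added after seeing the data. In risperidone mice the count of 1 was 0 with 1 probe set per gene, 0 with a gene's probe sets averaged, 0 with the strain marker share, 0 with 3 regional marker scores, 0 without the intermediate arrays and 0 without these and DBA/2J control replicate 4. It was 1 with each single array left out. With only probe sets at or above the median level it was also 1, but for another gene. Per3 1441445_PM_at is not tested there, and Clock 1435775_PM_at is the call (adjusted p = 0.0495, limma). Per3 1441445_PM_at is not tested with 1 probe set per gene either, since it is not the brightest of Per3. With 1 value per gene only 9 clock genes are tested, and the strain marker share nearly repeats the strain itself, so its fit has large errors (Per2 1.26 ± 0.58). In that fit Bhlhe41 1457096_PM_at was 0.31 ± 0.59 between control mice, where it was -0.50 without the covariate. The causes of the other lost calls were not tested.

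Clock 1435775_PM_at stayed at 0.36 to 0.44 between control mice, past the threshold without any single array (highest adjusted p = 0.0379), and its adjusted p was 0.0581 with only the arrays compared. In risperidone mice its adjusted p was 0.0495 when probe sets below the median level were left out. Per3 1441445_PM_at stayed at -0.63 to -0.50 without single arrays (highest adjusted p = 0.0429). The replicate block, with the replicate number as the block, left the 6 counts at 0, 0, 0, 0, 2 and 1, and Per2 1417602_PM_at at -0.46 in the DBA/2J drug comparison (adjusted p = 0.231). Under the block Bhlhe41 1457096_PM_at had an adjusted p of 0.0557 between control mice.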
